A study of Mus musculus with 6 samples.

Results

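The genes described here are the 3 DNA methyltransferases Dnmt1, Dnmt3a and Dnmt3b, the catalytically inactive relative Dnmt3l, and the paired RING-finger proteins Uhrf1 and Uhrf2. They are 6 of 26567 genes to which transcripts of the deposited tables could be paired, and they were chosen by name as the enzymes of DNA methylation and their recruitment factors, each with all of its paired transcripts, 55 in total. RNA was sequenced from cap mesenchyme, the layer around the ureteric tips that holds the nephron progenitors, sorted by flow cytometry from C57BL/6 mouse kidneys at embryonic day 18.5. The KO group (genotype Dnmt1 -/-) had 3 libraries, and the HET group (genotype Dnmt1 +/-) had 3 libraries. Both groups carried Six2.Cre, a recombinase under the control of the progenitor gene Six2, so the controls also carried the recombinase and had lost an allele of Dnmt1 wherever it acted. No wild-type library was among the 6, and cells of the sort in which the recombinase is not active would keep Dnmt1. The marker used for sorting, which exons of Dnmt1 were conditional, and whether each library came from its own embryo are not stated in the sources used here.

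Methylation of cytosine in CpG pairs is kept through cell division by Dnmt1, which copies the pattern onto the new strand after the replication fork. Uhrf1 binds the half-methylated CpG and brings Dnmt1 to it, while the related Uhrf2 also binds modified cytosine but does not replace Uhrf1. Dnmt3a and Dnmt3b place methylation on unmarked DNA, and Dnmt3l, best known from germ cells, has no catalytic activity and stimulates them. Dnmt1 and Uhrf1 are most active in dividing cells, and the nephron progenitors of the embryonic kidney divide.

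To show promoters of the genes described below, 4 windows are given as RefSeq holds them on GRCm38.p6, each with 250 bases before and 50 bases after an annotated start, 5′ to 3′ on the strand of the gene. Capitals mark CpG pairs, the substrate of these enzymes. The Dnmt1 window is chr9:20952930-20953229 on the minus strand, upstream of the start of transcript Dnmt1-201 in the annotation used here. The Uhrf1 windows are chr17:56303087-56303386, in which transcript Uhrf1-001 starts, and chr17:56304063-56304362, in which Uhrf1-003 starts, both on the plus strand. The Dnmt3l window is chr10:78042037-78042336 on the plus strand, where Dnmt3l-001 starts.
Dnmt1: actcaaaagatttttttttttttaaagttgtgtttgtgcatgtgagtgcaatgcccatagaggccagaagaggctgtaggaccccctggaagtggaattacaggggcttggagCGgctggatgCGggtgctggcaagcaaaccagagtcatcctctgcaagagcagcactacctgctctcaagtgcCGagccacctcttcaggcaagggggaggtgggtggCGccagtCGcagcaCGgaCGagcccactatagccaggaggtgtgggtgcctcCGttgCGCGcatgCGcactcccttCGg
Uhrf1, upstream start: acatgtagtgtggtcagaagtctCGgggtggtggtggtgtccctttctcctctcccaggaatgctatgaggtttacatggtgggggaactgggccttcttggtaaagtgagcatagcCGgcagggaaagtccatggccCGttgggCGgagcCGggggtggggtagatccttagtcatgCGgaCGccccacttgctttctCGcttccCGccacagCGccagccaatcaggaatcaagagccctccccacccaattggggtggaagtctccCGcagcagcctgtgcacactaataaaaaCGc
Uhrf1, downstream start: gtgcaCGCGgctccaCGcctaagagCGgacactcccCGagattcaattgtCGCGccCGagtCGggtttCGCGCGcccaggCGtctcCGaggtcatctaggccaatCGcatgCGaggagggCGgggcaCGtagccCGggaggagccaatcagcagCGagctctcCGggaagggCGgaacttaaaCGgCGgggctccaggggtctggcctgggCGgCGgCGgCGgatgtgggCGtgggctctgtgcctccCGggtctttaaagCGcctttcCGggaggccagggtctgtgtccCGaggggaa
Dnmt3l: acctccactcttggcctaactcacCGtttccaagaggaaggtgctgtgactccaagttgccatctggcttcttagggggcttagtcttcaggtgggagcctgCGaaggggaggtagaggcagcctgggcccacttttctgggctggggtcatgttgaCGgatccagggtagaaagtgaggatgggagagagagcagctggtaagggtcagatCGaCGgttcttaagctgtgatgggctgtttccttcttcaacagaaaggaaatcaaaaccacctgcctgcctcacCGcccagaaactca

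The downstream Uhrf1 window held 33 CpG, a number that 8.56% of the 32851 RefSeq windows of this length reach. The Dnmt1 window and the upstream Uhrf1 window held 12 each, reached by 39.59% of windows, and the Dnmt3l window held 6, against a median of 7 over all windows. By this count the Dnmt3l window is near the middle of all promoters. No methylation was measured in this study. The 8-letter cell-cycle motifs TTTCCCGC, TTTGGCGC, TTTCGCGC and TTTGCCGC, known as sites of E2F factors, were searched on both strands, and 2.26% of all windows held any of them. The downstream Uhrf1 window held TTTCGCGC in the printed direction beginning at -185 from the start, and the Dnmt1 window shown held none of these letters. A further RefSeq window of Dnmt1, which begins where Dnmt1-201 starts in the annotation and so lies within the gene, held 33 CpG, TTTGGCGC in the direction of the gene and TTTCGCGC on the opposite strand. The other 11 of the 13 windows of these genes held none of the letters searched.

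Total estimated counts per library lay between 46741667 and 61585484. The counts paired with genes, on which the CPM of genes rests, totalled 43348512 to 57165335, and 3 counts of these totals equal 0.0525 to 0.0692 CPM before TMM scaling. The CPM of transcripts was scaled separately, over paired and unpaired transcripts, so a gene and its only transcript can differ in CPM. Values below are CPM, the counts of a gene scaled to a common library size after TMM normalisation, unless TPM is named. Values in TPM correct for length and were taken as deposited, without TMM scaling. Adjusted p-values are from edgeR's quasi-likelihood test with Benjamini-Hochberg adjustment over 16989 genes at 0.05. At that threshold 4.92% of genes were higher and 1.92% lower in KO. An unadjusted p under 0.05 was reached by 3738 of the 16989. DESeq2, a second test, called 1346 genes higher and 586 lower among 19171. The 3 values of a group lay wholly above or wholly below those of the other group for 29% of genes. The median log2 fold change of all genes was -0.0028. The progenitor markers Six2 and Cited1 were present in every library, and no list of markers of other cells was at 0 throughout.

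Of the 5 genes of the family that were tested, 1 fell (Dnmt1) and none rose, while Uhrf1, Uhrf2, Dnmt3a and Dnmt3b did not pass the test. Dnmt3l had too few counts to be tested. The groups did not overlap for 3 of the 5, with Uhrf1 higher and Dnmt1 and Uhrf2 lower in KO, against 14.8% of all genes lying higher and 14.2% lower without overlap.

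**Figure D1:**
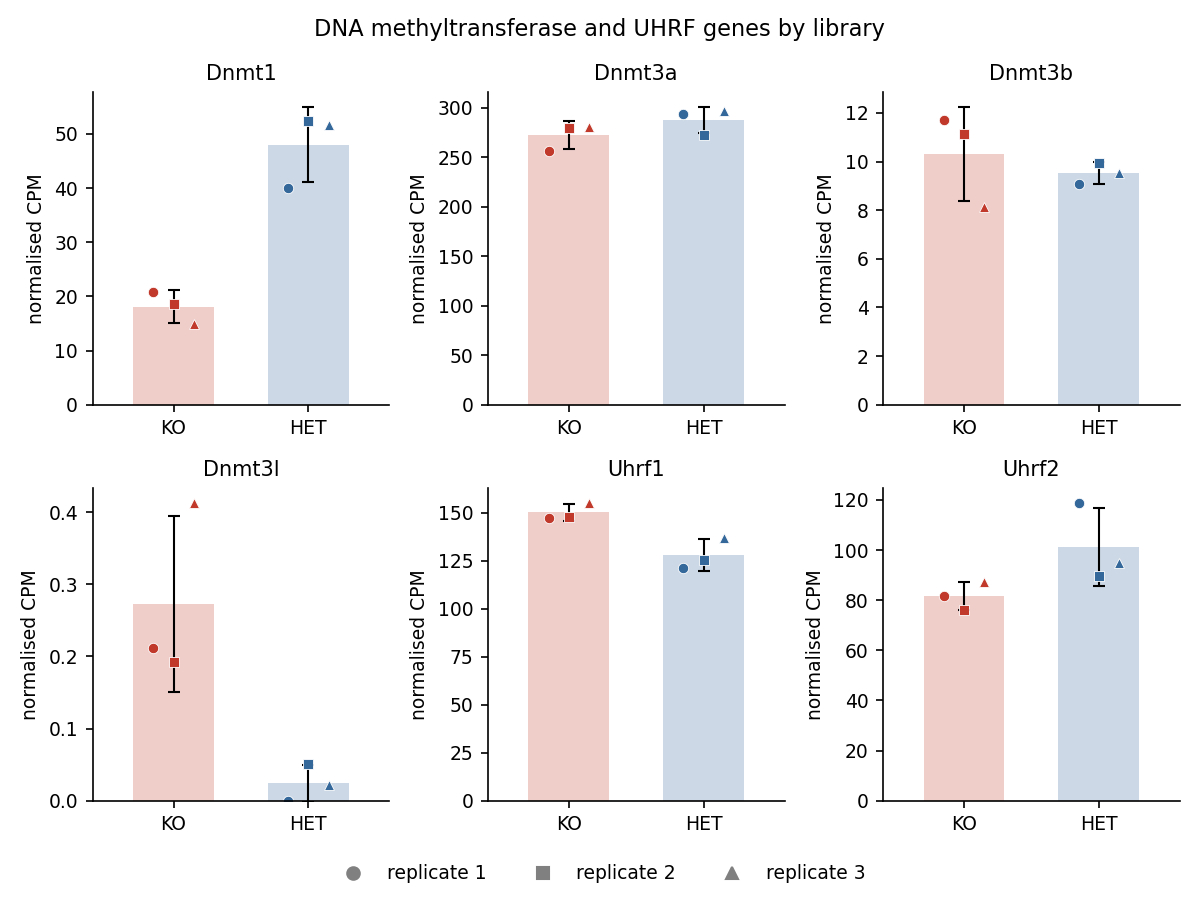
Normalised CPM (y axis, from 0, its own scale in each panel) of the 6 genes in KO and HET libraries. Points are libraries, bars are means and error bars are SD over 3 libraries. All KO libraries lie below all HET libraries for Dnmt1 and Uhrf2 and above them for Uhrf1 and Dnmt3l, and the groups overlap for Dnmt3a and Dnmt3b.

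Dnmt1, the maintenance methyltransferase and the gene deleted in this study, had 20.9, 18.6 and 14.9 CPM in the KO libraries and 40.04, 52.4 and 51.7 CPM in the HET libraries. The highest KO library was below the lowest HET library. The means were 18.1 ± 3.02 CPM in KO and 48.1 ± 6.95 CPM in HET (SD, n = 3 each), so that the KO libraries kept 37.7% of the HET level. The log2 fold change was -1.41 (SE 0.15, 95% interval -1.74 to -1.07, edgeR adjusted p = 0.00026406). By p it ranked at place 199 among all genes tested. The estimated counts behind these values were 984, 964 and 758 in KO and 2059, 3079 and 2345 in HET (Ensembl ENSMUSG00000004099, chromosome 9, 20711650 to 20757317 on the minus strand of NCBIM37).

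The files held 1 paired transcript of Dnmt1, the coding Dnmt1-201, with 17.2 ± 2.99 CPM in KO and 43.7 ± 6.85 CPM in HET (SD, n = 3 each). Its log2 fold change was -1.34 (SE 0.17, edgeR adjusted p = 0.011943 over 50137 transcripts). Without HET replicate 2 the adjusted p was 0.055634, without HET replicate 3 it was 0.056483, and without KO replicate 2 it was 0.078633. The file gives this transcript 5370 bases and the annotation used here 5264, so its exons may differ between the releases. As a sum over the whole transcript, this value does not separate reads of deleted exons from reads of exons that a deleted allele can still transcribe. In bulk RNA, fewer cells of a type and less RNA per cell cannot be told apart, and here that includes cells in which the allele was not deleted.

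Markers of some other cells ran in the same order as Dnmt1 across the KO libraries. The summed CPM of 8 endothelial markers was 189, 75.2 and 35.2 in KO against 21.2 to 26.3 in HET, and 1 of the 8, Emcn, passed the test, with 4 at an unadjusted p of 0.05 and 4 higher by DESeq2. Dnmt1 was likewise highest in KO replicate 1 and lowest in KO replicate 3. The 8 ureteric bud markers summed to 65.8 to 216 CPM in KO and 41.1 to 67.0 CPM in HET, with Ret alone passing and 2 higher by DESeq2, and the 8 renal stroma markers to 392.5 to 979 CPM in KO and 278 to 377 CPM in HET, with none passing at the adjusted threshold, 1 at an unadjusted p of 0.05 and none by DESeq2. No marker of these 3 lists was at 0 in all libraries. Of 11 nephron progenitor markers 4 were lower in KO (Cited1, Wt1, Tmem100 and Hoxd11), with 6 lower and 1 higher by DESeq2, and the sum of the list was 1234 to 1512 CPM in KO and 1815 to 1902 CPM in HET. Macrophage markers summed to 10.4 to 14.3 CPM in KO and 8.85 to 9.39 CPM in HET, and erythroid markers to 142 to 314 CPM in KO and 187 to 414 CPM in HET, with none passing. Early nephron markers summed to 588 to 667 CPM in KO and 546 to 557 CPM in HET. Of these, Pax8 alone passed, as higher (log2 fold change 0.57, edgeR adjusted p = 0.0025416), with 1 higher and 1 lower by DESeq2. The part of all these cells in the level of Dnmt1 was not tested. Without KO replicate 1, the library richest in endothelial, ureteric and stromal markers, the Dnmt1 log2 fold change was -1.51 (edgeR adjusted p = 0.00017528).

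Embryos of both sexes were present, since Y-linked genes summed to 7.79, 185 and 10.4 CPM in KO and 309, 9.15 and 256 CPM in HET. With sex as a covariate the log2 fold change of Dnmt1 was -1.43 (edgeR adjusted p = 0.0011016).

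**Figure D2:**
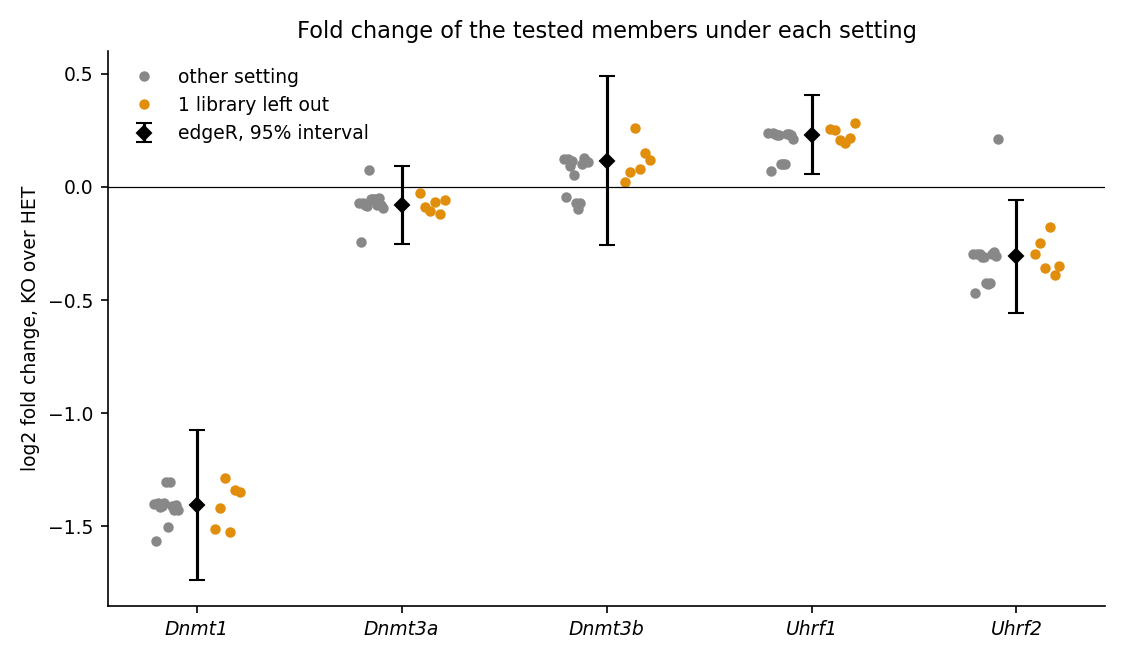
log2 fold change of KO over HET (y axis) for the 5 tested genes. Black diamonds are the edgeR estimates with 95% intervals, grey points the other settings and orange points the fits with 1 library left out. Dnmt1 stays between -1.57 and -1.29 throughout, while points of Dnmt3a, Dnmt3b and Uhrf2 lie on both sides of 0.

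Uhrf1, the factor that recruits Dnmt1 to replicated DNA, had 147, 148 and 155 CPM in KO libraries and 121, 126 and 137 CPM in HET libraries. Every KO library was above every HET library. The means were 150.3 ± 4.33 CPM in KO and 128 ± 8.24 CPM in HET (SD, n = 3 each). The log2 fold change of 0.23 (SE 0.08, 95% interval 0.06 to 0.41) did not pass (edgeR adjusted p = 0.11635). The gene lies at 56442744 to 56462909 on the plus strand of chromosome 17 of NCBIM37. In TPM, taken without TMM scaling, the difference was smaller and the groups overlapped. Mean levels were 49.5 ± 2.75 TPM in KO and 46.1 ± 2.63 TPM in HET. With library totals as the only scaling the log2 fold change was 0.07 (edgeR adjusted p = 0.55059). With length offsets and TMM it was 0.23 (edgeR adjusted p = 0.13194).

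The 7 paired Uhrf1 transcripts included 5 that were tested, 4 of them coding. Uhrf1-001, which starts at the CpG-poorer upstream window shown above, had 20.9, 28.6 and 14.5 CPM in KO and 5.57, 11.0 and 9.95 CPM in HET. All KO values were above all HET values, as for 11.3% of the 50137 transcripts tested, but with a wide spread in KO. Its log2 fold change was 1.27 (SE 0.34, edgeR adjusted p = 0.17867), and DESeq2 gave an adjusted p of 0.0027081. It made up 15%, 20% and 10% of the Uhrf1 transcript counts in KO and 5.1%, 9.6% and 7.9% in HET.
The larger share came from Uhrf1-004, with 86.1 ± 11.7 CPM in KO and 76.5 ± 11.7 CPM in HET, whose groups overlapped (log2 fold change 0.17, SE 0.14, edgeR adjusted p = 0.65316). Uhrf1-002 and Uhrf1-003 also overlapped between groups, with log2 fold changes of 0.21 (SE 0.17) and 0.13 (SE 0.28). These transcripts have 17 exons each and overlap, and their division of the reads is an estimate made by kallisto.

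Uhrf2, which binds modified cytosine and is a ubiquitin ligase like Uhrf1, had 81.6, 76.2 and 87.2 CPM in KO libraries and 119, 89.5 and 94.9 CPM in HET libraries. Every KO library was below every HET library, HET replicate 1 standing above the other two. The means were 81.7 ± 5.49 CPM in KO and 101 ± 15.6 CPM in HET (SD, n = 3 each). The log2 fold change of -0.31 (SE 0.11, 95% interval -0.56 to -0.06) did not pass (edgeR adjusted p = 0.14187). With library totals as the only scaling, where the median of all genes is -0.17, it was -0.47 (edgeR adjusted p = 0.030889). The gene lies at 30105003 to 30168212 on the plus strand of chromosome 19 of NCBIM37.

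The gene sum of Uhrf2 joined transcripts whose estimates had opposite signs, although no Uhrf2 transcript passed the test. The coding transcript Uhrf2-001 had 22.1, 22.1 and 21.7 CPM in KO and 17.6, 16.7 and 19.4 CPM in HET, with every KO library higher (log2 fold change 0.30, SE 0.10, edgeR adjusted p = 0.28505). The other 7 tested transcripts are annotated as retained introns. Uhrf2-003, the most abundant of them, had 28.0, 24.0 and 28.8 CPM in KO and 49.2, 32.0 and 32.9 CPM in HET (log2 fold change -0.50, SE 0.18, edgeR adjusted p = 0.31138). Of its 3231 bases, 71.7% lie in intron 3 of Uhrf2-001. Uhrf2-002 and Uhrf2-005 were also lower in every KO library, with log2 fold changes of -0.55 (SE 0.21) and -0.25 (SE 0.12), and neither passed. Of their bases 47.2% and 9.3% lie in introns of Uhrf2-001, so most of Uhrf2-005 is exon sequence shared with the coding transcript. How the reads divide between them is an estimate made by kallisto. Over all 50137 tested transcripts, 11.3% lay wholly higher and 11% wholly lower in KO. Of the retained-intron transcripts 16.5% lay wholly lower.
The coding transcript held 28.6%, 29.9% and 26.6% of Uhrf2 transcript counts in KO and 16.6%, 20.4% and 22.3% in HET, a split that was looked at after the values were seen. Summed over protein-coding transcripts alone, a choice also made after the data were seen, the log2 fold change of Uhrf2 was 0.21 (SE 0.11, edgeR adjusted p = 0.28141), the opposite sign to the whole gene.

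Values below 0 were common among retained-intron transcripts. Over 7465 tested transcripts annotated as retained introns the median log2 fold change was -0.18 and 66.8% were below 0, while over 25956 protein-coding transcripts the median was 0.07 and 42.6% were below 0. Adjusted p passed for 26 retained-intron transcripts higher in KO and 1 lower. The share of all counts in this class was 5.27%, 5.32% and 5.59% in KO and 2.98%, 2.72% and 2.70% in HET. A single transcript, Ccrn4l-002, named after its values were seen, held 2.97% to 3.33% of all counts in KO and 0.029% to 0.038% in HET. Without it the class held 2.37%, 2.06% and 2.37% of the other counts in KO and 2.94%, 2.69% and 2.67% in HET.

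**Figure D3:**
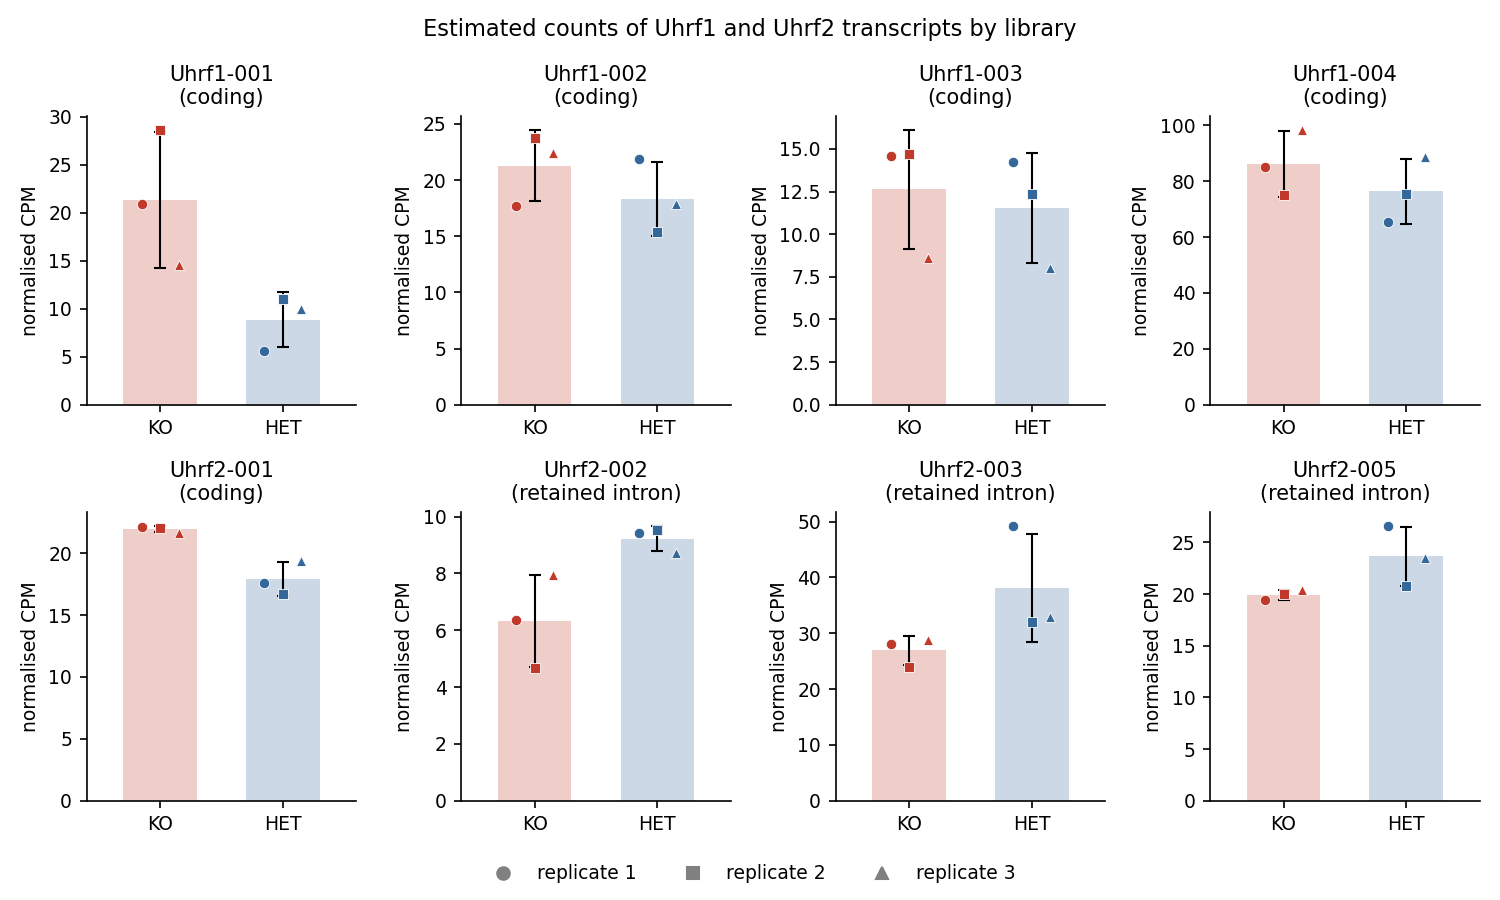
Normalised CPM (y axes from 0) of 4 coding Uhrf1 transcripts, the coding Uhrf2 transcript and the 3 most abundant retained-intron transcripts of Uhrf2 in KO and HET libraries. Points are libraries, bars means and error bars SD over 3 libraries. KO libraries lie above HET for Uhrf1-001 and Uhrf2-001 and below HET for Uhrf2-002, Uhrf2-003 and Uhrf2-005. Of all transcripts tested 11.3% lie wholly above and 11% wholly below.

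Of the 25 tested transcripts of the family, 1 passed, Dnmt1-201, against 1.79% of all transcripts, 1.59% higher and 0.199% lower in KO. At an unadjusted p of 0.05 there were 5, a count whose share over all transcripts was not taken, so no excess is read from it. Among genes, 3738 of 16989 reached that threshold. DESeq2 called 2 of the family, against 2084 higher and 631 lower over all transcripts, out of a total that was not taken. A test of unequal change among the transcripts of a gene (edgeR's diffSpliceDGE, 32681 transcripts of 8168 genes, of which 0.532% were called, 0.239% higher and 0.294% lower) called 0 of the 24 family transcripts it covered, and 2 had an unadjusted p under 0.05. These were Uhrf1-001 (log2 usage change 0.97, edgeR adjusted p = 0.2308) and Uhrf2-001 (0.54, edgeR adjusted p = 0.91048).

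Dnmt3a, a de novo methyltransferase, had 256, 280 and 281 CPM in KO libraries and 294, 273 and 297 CPM in HET libraries, and the groups overlapped. The means were 272 ± 14.1 CPM in KO and 288 ± 13.1 CPM in HET (SD, n = 3 each). The log2 fold change was -0.08 (SE 0.08, edgeR adjusted p = 0.5769), with a 95% interval of -0.25 to 0.09. With library totals as the only scaling, which puts the median of all genes at -0.17, it was -0.24 (adjusted p = 0.042568). With transcript-length offsets it was 0.08. The gene lies at 3806007 to 3914443 on the plus strand of chromosome 12 of NCBIM37.

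Of 18 paired Dnmt3a transcripts 8 were tested. Dnmt3a-001 starts upstream and Dnmt3a-201 starts downstream, at the start of the shorter Dnmt3a2 form. Dnmt3a-001 averaged 148 ± 13.6 CPM in KO and 157 ± 10.3 CPM in HET, and Dnmt3a-201 averaged 75.1 ± 8.07 CPM in KO and 84.6 ± 10.5 CPM in HET. Neither difference passed the test, with log2 fold changes of -0.08 (SE 0.10) and -0.17 (SE 0.12), and the groups overlapped. The upstream transcript held 54.7% to 58.7% of Dnmt3a transcript counts in KO and 58.2% to 61.1% in HET. Dnmt3a-005, which shares the downstream start, was estimated at 20.4, 38.9 and 31.9 CPM in KO and at 0, 20.4 and 21.3 CPM in HET. The 0 in HET replicate 1 belongs to a division of shared reads that kallisto estimates, and no fold is drawn from it.

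Dnmt3b, the other de novo methyltransferase, had 11.7, 11.1 and 8.11 CPM in KO libraries and 9.06, 9.95 and 9.53 CPM in HET libraries. KO replicate 3 was below all HET libraries and the other KO libraries were above them. The means were 10.3 ± 1.93 CPM in KO and 9.52 ± 0.446 CPM in HET (SD, n = 3 each). The log2 fold change was 0.12 (SE 0.17, edgeR adjusted p = 0.7201), with a 95% interval of -0.26 to 0.49 and the opposite sign under library totals (-0.04) and on the TPM scale with a pseudocount of 1 (-0.07). Of its 12 paired transcripts, 3 were tested (Dnmt3b-003, Dnmt3b-006 and Dnmt3b-201), with log2 fold changes of 0.15 (SE 0.57), 0.28 (SE 0.26) and -0.08 (SE 0.38). The gene lies at 153475186 to 153513466 on the plus strand of chromosome 2 of NCBIM37.

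Dnmt3l, the inactive cofactor, was near the limit of detection, with 10, 10 and 21 estimated counts in KO libraries and 0, 3 and 1 in HET libraries. Every KO library was above every HET library. The sums of 41 counts in KO and 4 in HET gave a ratio of 10.6 relative to TMM-adjusted library sizes, with an exact binomial 95% interval of 3.85 to 40.9 that covers counting error only. Without the filter on low counts the log2 fold change was 3.31 (SE 1.0, edgeR adjusted p = 0.078917). None of its 8 paired transcripts had enough counts to be tested.
Dnmt3l (77504692 to 77526367 on the plus strand of chromosome 10 of NCBIM37) overlaps Aire, the thymic transcription factor, on the other strand. Aire had 254, 196 and 431 counts in KO and 52.8, 38.1 and 46.8 in HET (log2 fold change 2.70, SE 0.35, edgeR adjusted p = 0.00088804). The sources used here do not say whether the library kit kept strand. If it did not, reads from any exon sequence shared by the 2 genes could not be told apart. The overlap was taken over whole gene spans, and exons were not compared. The pseudogene Dnmt3l-ps1 had 22 counts in KO and 25 in HET. Of 5 tested germ cell markers 1 rose, the RNA helicase gene Ddx4 (log2 fold change 5.03, SE 0.64, edgeR adjusted p = 0.002587). The others did not pass, with log2 fold changes of -0.37 for Pou5f1, -0.21 for Nanog, 0.24 for Kit and 1.44 for Prdm1. The list summed to 13.4 to 22.2 CPM in KO and 8.48 to 12.6 CPM in HET, and Ddx4 alone had 4.99 to 9.82 CPM in KO. The part of germ cells in Dnmt3l was not tested.

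Levels were compared per length, in TPM summed over all transcripts of a gene. In KO the order was Dnmt3a (55.4 ± 1.44 TPM), Uhrf1 (49.5 ± 2.75 TPM), Uhrf2 (42.4 ± 3.21 TPM), Dnmt1 (3.63 ± 0.705 TPM), Dnmt3b (3.01 ± 0.688 TPM) and Dnmt3l (0.318 ± 0.241 TPM), each with SD over 3 libraries. In HET it was Uhrf2 (57.9 ± 12.3 TPM), Dnmt3a (57.5 ± 1.64 TPM), Uhrf1 (46.1 ± 2.63 TPM), Dnmt1 (10.4 ± 1.04 TPM), Dnmt3b (3.17 ± 0.202 TPM) and Dnmt3l (0.0283 ± 0.0297 TPM).
In HET, Uhrf2 and Dnmt3a did not differ beyond their spread. Uhrf1 was below Dnmt3a in every library of both groups. Dnmt1 was above Dnmt3b in every library, but in KO their means differed by less than their SD. The TPM of Dnmt1 over that of Dnmt3a was 0.081, 0.064 and 0.052 in KO and 0.165, 0.189 and 0.187 in HET. Over Uhrf1 it was 0.085, 0.077 and 0.058 in KO and 0.198, 0.255 and 0.226 in HET. Dnmt3a stood 15.2 to 25.5 times above Dnmt3b in KO and 17.2 to 19.4 times in HET. The Uhrf2 sum was below Uhrf1 in all KO libraries and above it in all HET libraries, and it included the retained-intron transcripts. The coding Uhrf2-001 alone had 7.55, 6.77 and 7.10 TPM in KO and 6.99, 5.95 and 6.92 TPM in HET, above Dnmt1 in every KO library and below Dnmt1 in every HET library. These values rest on kallisto's division of reads between Uhrf2-001 and transcripts that share its exons.

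**Figure D4:**
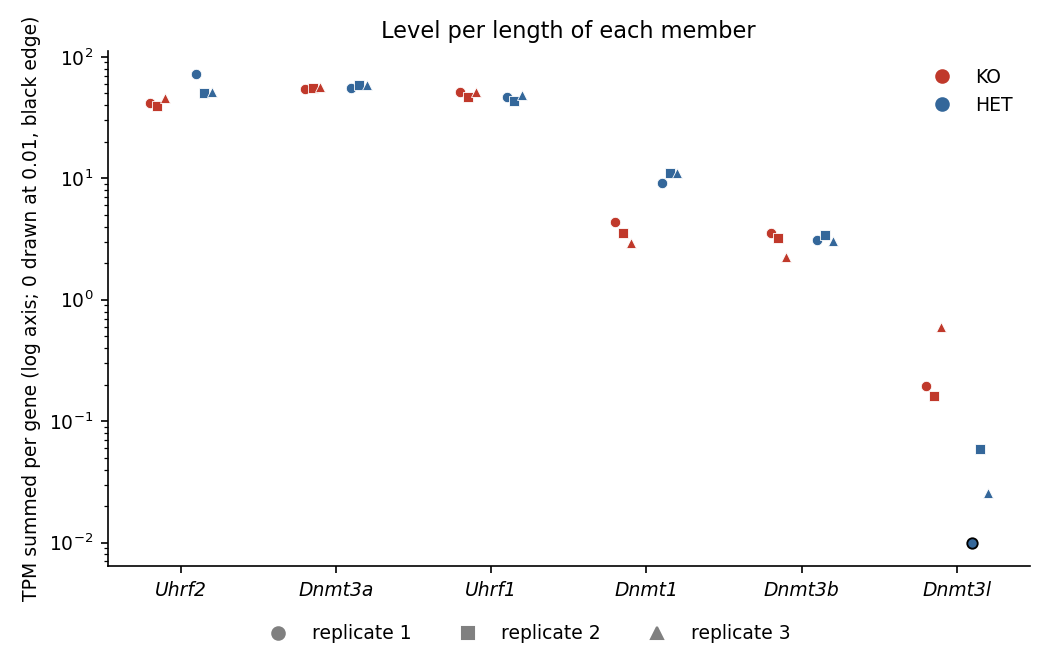
TPM summed per gene (log axis) in KO and HET libraries, with genes ordered by their HET mean. Symbols are replicates, and the single HET library in which Dnmt3l was listed at 0 is drawn at 0.01. Uhrf2, Dnmt3a and Uhrf1 lie near 40 to 72 TPM, Dnmt1 and Dnmt3b near 2 to 11 TPM and Dnmt3l below 1.

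The genes that work with these enzymes were examined in 6 lists, of whose 94 tested members 4 passed, or 4.26%, against 6.85% of all genes. Of 20 maintenance partners, proteins of the replication-coupled copying of methylation, 1 rose and none fell, with a median log2 fold change of -0.02 over the list. The gene was Cdca7l, a relative of the chromatin remodelling cofactor Cdca7, at 31.1, 32.1 and 25.0 CPM in KO and 21.5, 22.6 and 20.1 CPM in HET (log2 fold change 0.46, SE 0.12, edgeR adjusted p = 0.047836). It passed in 5 of 18 alternatives. Zbtb24, a zinc-finger protein whose human gene is mutated in a centromeric instability syndrome, had the next smallest p in this list, with 15.3 ± 0.445 CPM in KO and 19.0 ± 2.08 CPM in HET (adjusted p = 0.15699, and 0.030586 under library totals).

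Of 14 genes of de novo targeting, which bring silencing or methylation to chosen loci, 1 rose and none fell (median log2 fold change -0.05). Morc2a, a chromatin compaction ATPase of transposon silencing, had 45.0, 42.2 and 41.1 CPM in KO and 29.8, 28.2 and 27.0 CPM in HET. All KO values were above all HET values, with a log2 fold change of 0.59 (SE 0.09, edgeR adjusted p = 0.002587). On the scale of log2(TPM + 1) it was 0.19 (limma adjusted p = 0.51216), and with length offsets 0.33 (edgeR adjusted p = 0.15745). Zfp57, which keeps methylation at imprinted regions, had 44.9 ± 2.09 CPM in KO and 35.5 ± 2.89 CPM in HET (log2 fold change 0.34, edgeR adjusted p = 0.062396). It passed by DESeq2 (adjusted p = 0.014881) and without HET replicate 1 (edgeR adjusted p = 0.033599).

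Of 17 tested genes of the S-adenosylmethionine cycle, which makes the methyl donor, 1 rose and none fell (median 0.02). Adk, the adenosine kinase gene, had 197, 232 and 212 CPM in KO and 166, 158 and 151 CPM in HET (log2 fold change 0.43, SE 0.08, edgeR adjusted p = 0.012472). It failed the threshold in 6 of 18 alternatives, among them without KO replicate 2 (0.058674), without HET replicate 2 (0.055873) and without HET replicate 3 (0.063136).

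Of 11 tested demethylation genes none passed by edgeR or by DESeq2, and 2 had an unadjusted p under 0.05 (median log2 fold change -0.03). These were the dioxygenases Tet3, with 97.4 ± 9.59 CPM in KO and 118 ± 9.02 CPM in HET, and Tet2, with 46.3 ± 0.908 CPM in KO and 56.0 ± 6.40 CPM in HET. Their adjusted p-values were 0.12335 for Tet3 and 0.1303 for Tet2, and with library totals as the only scaling both passed as lower (edgeR adjusted p = 0.015316 for Tet3 and 0.020325 for Tet2). None of the 7 methyl-CpG readers passed by edgeR or by DESeq2, and 0 had an unadjusted p under 0.05. All 7 had a log2 fold change below 0 (median -0.14, against -0.0028 over all genes), but only 5 of 7 did without HET replicate 1. Mbd2 had 11.5 ± 0.815 CPM in KO and 13.9 ± 0.626 CPM in HET (edgeR adjusted p = 0.23078), and Zbtb38 had 109 ± 7.86 CPM in KO and 119.9 ± 6.88 CPM in HET (edgeR adjusted p = 0.35896). Mbd2 passed as lower in 4 alternatives, library totals (edgeR adjusted p = 0.046014) and the 3 TPM settings (limma adjusted p of 0.026858 to 0.039334). Zbtb38 passed under library totals (edgeR adjusted p = 0.031042). These settings do not use TMM. The median of all genes was -0.17 under library totals and -0.13 to -0.04 in the TPM settings.

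Of 25 genes of DNA replication, the process to which Dnmt1 and Uhrf1 are coupled, 1 fell and none rose (median -0.04). Rrm2, the small subunit of ribonucleotide reductase, had 205, 196 and 213 CPM in KO and 268, 252 and 242 CPM in HET (log2 fold change -0.31, SE 0.08, edgeR adjusted p = 0.038421). It failed the threshold in 8 of 18 alternatives, including each of the 6 fits with 1 library left out. Gins2, a subunit of the replicative helicase, had 75.5 ± 4.56 CPM in KO and 91.3 ± 5.81 CPM in HET (adjusted p = 0.091115). It passed as lower in 4 alternatives, library totals (edgeR adjusted p = 0.010027) and the 3 TPM settings (limma adjusted p of 0.015706 to 0.034672). These 4 do not use TMM. In them the median of all genes was -0.17 (library totals) and -0.13 to -0.04 (TPM).

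**Figure D5:**
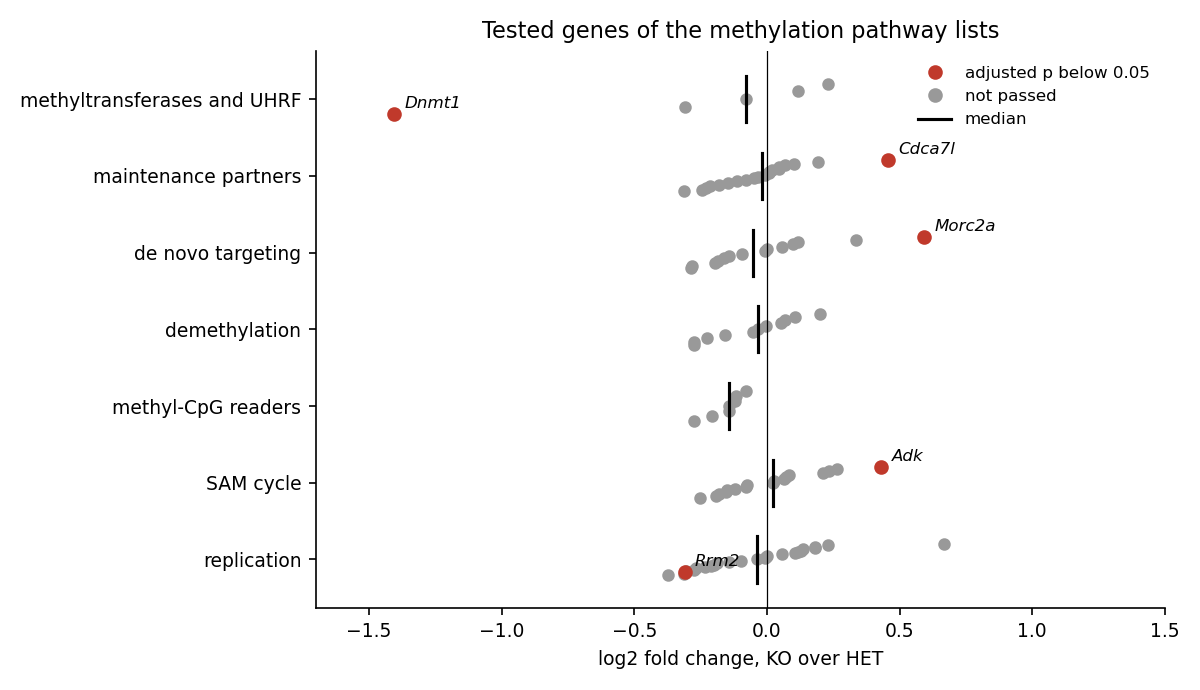
log2 fold change of KO over HET (x axis) for the tested genes of 7 lists (y axis), with genes spread vertically by value. Red points passed the adjusted threshold, grey points did not, and black lines are medians. Dnmt1 at -1.41 stands far to the left, and the medians of the lists lie between -0.14 and 0.02.

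Among the genes whose profile over the 6 libraries was nearest to that of Dnmt1, by the root mean square distance of centred log2(CPM + 1) among 10579 protein-coding genes averaging 5 CPM or more, were As3mt and Igf2, at distances of 0.170 and 0.176. The imprinted growth factor gene Igf2 had 251, 205 and 237 CPM in KO and 590, 646 and 673 CPM in HET. As3mt, an arsenite methyltransferase gene, had 19.2, 13.4 and 10.5 CPM in KO and 33.7, 34.4 and 34.8 CPM in HET, the same order of KO libraries as Dnmt1. Both genes were low in all KO and high in all HET libraries, as the choice by likeness to Dnmt1 requires. For Uhrf1 the nearest were Calr, Sec11a, 2610507B11Rik and Fig4, at distances of 0.0194, 0.0207, 0.0262 and 0.0298. Calr, a chaperone gene of the endoplasmic reticulum, had 622, 643 and 650 CPM in KO and 526, 535 and 583 CPM in HET. None of these 4 passed the gene test.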

How the data were processed

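Per the file headers, the authors deposited for each library a kallisto table with estimated counts (also called expected counts, often with decimals), TPM (abundance per length, scaled to the library) and other values, the length and effective length in bases. Per the submitters' processing notes the tool was kallisto and the build mm10. The annotation release of the index and strandedness are not stated in the sources used here. Per the labels, RNA of sorted cells was sequenced on a HiSeq2000 after an ultra low input preparation from 50 ng.

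GENCODE vM1 (NCBIM37) paired 74519 of 96626 transcripts with 26567 genes, holding 92.4% to 92.82% of counts. The other 22107 entered the transcript tests only. Estimated counts were summed per gene, rounded, filtered with filterByExpr defaults (a minimum count of 10, total of 15) and tested with edgeR's quasi-likelihood test with TMM (edgeR 4.0.16, limma 3.58.1, DESeq2 1.42.0, R 4.3.3), KO against HET without covariates, with Benjamini-Hochberg adjustment at 0.05. The biological coefficient of variation was 0.21. Scripts were tested on simulated data. No label ties each library to an embryo of its own. By the Y-linked sums each group held libraries of both sexes, so a group did not rest on the same embryo throughout. Libraries of the same sex within a group may still share an embryo. The p-values reflect just the spread among these libraries, part of which may be technical. No 2 libraries agreed within sampling noise (chi-square per degree of freedom at least 13.63 within groups).

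The family and the lists were chosen with earlier results of these data known. Named genes are the 6 family genes and their tested transcripts, list genes that pass or have the 2 smallest p of a list, and the 4 nearest profiles for Dnmt1 and Uhrf1, unless stated. A few genes named by it are not reported here. Alternatives were other scalings, tests, filters, pseudocounts of 1 and 0.1 on TPM, length offsets, sex, a replicate block and each library left out. Promoter windows are from RefSeq (GRCm38.p6), and transcript starts were placed in them by an exact match of 30 bases.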

Additional observations from a re-analysis of the deposited data

How the results depend on the processing

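Dnmt1 kept its direction and its call in all 19 alternatives, with log2 fold changes of -1.57 to -1.29 and adjusted p-values up to 0.0072362; without 1 library the range was -1.52 to -1.29. Uhrf1 stayed positive and short of the threshold in all 19. With library totals as the only scaling, which moved the median of all genes to -0.17, Dnmt3a was at -0.24 (adjusted p 0.042568) and Uhrf2 at -0.47 (adjusted p 0.030889), both past the threshold, Dnmt3b reversed to -0.0448, and Uhrf1-002, Uhrf1-003, Uhrf1-004 and Dnmt3b-003 reversed to -0.0221, -0.105, -0.0473 and -0.0988. With length offsets Dnmt3a reversed to 0.0763. On the TPM scale Dnmt3b reversed to -0.0702 (pseudocount 1, with or without a filter at a mean TPM of 1) and -0.10 (pseudocount 0.1), and 2610507B11Rik to -0.06 in all 3. The median of all genes in these 3 settings, which do not use TMM, was -0.13 to -0.04. Protein-coding transcripts alone, added after the data were seen, turned Uhrf2 to 0.21. The causes were not tested. Without 1 library Dnmt3b-003 ranged from -0.22 to 0.53, Dnmt3b-201 from -0.56 to 0.16, Uhrf1-003 from -0.0751 to 0.343, Uhrf1-007 from -0.0103 to 0.692, Uhrf2-006 from -0.34 to 0.18, Uhrf2-008 from -0.91 to 0.22 and Uhrf2-009 from -0.62 to 0.15. Usage changes without 1 library ranged from -0.52 to 0.50 for Dnmt3b-003, -0.19 to 0.11 for Uhrf1-002, -0.429 to 0.0627 for Uhrf1-003, -0.30 to 0.45 for Uhrf1-007, -0.0425 to 0.0284 for Uhrf2-005, -0.15 to 0.41 for Uhrf2-006, -0.63 to 0.45 for Uhrf2-008 and -0.34 to 0.33 for Uhrf2-009. Of 275 transcript alternatives 254 kept direction and call, and of 192 usage alternatives 174. Only Dnmt1-201 had passed, and it kept its call in 7 of 11 alternatives. For the other transcripts and all usage tests, keeping the call meant staying short of the threshold.

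Genes higher and lower in KO numbered 836 and 327. DESeq2 called 1346 and 586, limma on log2(TPM + 1) 548 higher, the same for genes averaging 1 TPM or more 457 and 761, library totals 1883 lower, sex as a covariate 162 lower, and fits without 1 library 526 to 916 higher and 116 to 272 lower. Transcripts higher and lower numbered 795 and 100; DESeq2 called 2084 and 631, library totals 416 lower, and fits without 1 library 363 to 602 higher and 37 to 65 lower. Deviations of same-numbered libraries correlated at -0.058, -0.048 and -0.031. By the Y-linked sums each such pair joined libraries of opposite sex, so these values cannot show whether replicate numbers paired the samples. With the replicate block, 707 genes were higher and 265 lower, 200 transcripts were higher and 12 lower, Dnmt1 was at an adjusted p of 0.0072362, Dnmt1-201 at 0.12386 and Rrm2 at 0.062926. Depth limits Dnmt3l, whose HET libraries held 0 to 3 counts, and the division of reads among overlapping transcripts limits every transcript value.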

Other observations

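The other promoter windows of the family differed in CpG content. The remaining Dnmt1 window, the farthest upstream, held 2 CpG pairs. The 3 Dnmt3a windows held 46, 47 and 18 CpG pairs, the last being the one where Dnmt3a-201 starts. The Dnmt3b window held 30 and the Uhrf2 window 28. The other 2 Dnmt3l windows held 4 and 3. A near copy of Dnmt3b, the annotated pseudogene Gm14490, had 2.3, 1.1 and 0 estimated counts in KO libraries and 0, 10.4 and 2.2 in HET libraries, too few to compare.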
